A study of Sus scrofa with 120 samples.

Results

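The libraries compared here are 4 groups of primary chondrocytes from pig femoral cartilage, cast in 2% agarose and sampled at 9 h. They were compared for 1 quantity: how far the response to injurious compression depended on an siRNA against PIEZO1. The groups were siPIEZO1 with supraphysiologic load, siPIEZO1 with DMSO vehicle, siNTC (a non-targeting control siRNA) with supraphysiologic load, and siNTC with DMSO vehicle, each of 4 libraries. They were chosen by their labels, and made up 16 of the 120 libraries of the series. Loaded constructs received a single quasi-static unconfined compression to 80% deformation at 1.9% per min, and vehicle constructs received medium with DMSO diluted 1:1000 and were left free swelling. All 4 groups were transfected with an siRNA, so that transfection with an siRNA, though not its sequence, is common to them, and whether the compressed constructs also received DMSO is not given in the sources used here. The titles call the cells transduced, whereas the protocol describes lipid transfection of siRNA. The labels do not say whether the 4 libraries within each group derive from different animals or cultures, so p-values measure only their spread, which may be technical.

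PIEZO1 is a large channel of the plasma membrane that opens when the membrane is stretched and lets calcium and other cations enter. Chondrocytes, the cells that make and maintain cartilage matrix, express it together with PIEZO2 and with TRPV4, a calcium channel tied to physiologic and osmotic loading, and PIEZO1 is known for responding to high, injurious strain. The quantity of interest is a difference between 2 differences, called here the interaction: compressed minus vehicle in siPIEZO1 constructs, minus compressed minus vehicle in siNTC constructs. A positive interaction means that compression moved a gene further up, or less far down, with siPIEZO1 than with siNTC.

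The knockdown used 3 custom RNAs together, which the labels say were meant for different PIEZO1 transcript variants, and they are shown because every siPIEZO1 library carries all of them. They were added at about 222 nM for siPIEZO1a and about 278 nM each for siPIEZO1b and siPIEZO1c, and the labels list 1 strand of each, 22, 21 and 22 bases long with 13 G or C bases in each. Which strand is the guide is not given in the sources used here, so no seed is marked.
siPIEZO1a: cagcgagaucucgcacuccauc
siPIEZO1b: uacgaccugcugcagcuccug
siPIEZO1c: acccgcuggccaugcaguucuu

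The 16 libraries held between 36807992 and 62423069 counts, and the lowest total belonged to replicate 4 of the siPIEZO1 vehicle group. Among counts from 1 to 20, between 52.4% and 57.5% were even numbers in each library, and how the reads of a pair were counted is not given in the sources used here. Levels are given as CPM, the gene's count as a rate per library size, scaled by edgeR's trimmed mean of M-values (TMM). Replicate 4 of siPIEZO1 vehicle and replicate 3 of compressed siNTC stood apart from their groups on principal component 3, which held 8.3% of the variance. By root mean square log2 deviation from the group mean, replicate 1 of compressed siNTC lay as far out as replicate 3, at 0.618 against 0.616. All 8 chondrocyte markers were detected in every library, with SOX9, the cartilage transcription factor, at 214 to 298 CPM and COL2A1, the collagen of cartilage, at 4283 to 7461 CPM, while MATN3 and SNORC were low at 1.83 to 5.79 and 9.13 to 20.5 CPM. These 8 summed to 11750 to 13250 CPM in compressed siPIEZO1 and 10930 to 12300 CPM in siPIEZO1 vehicle libraries. With siNTC the sum was higher, 14230 to 15530 CPM in compressed and 13120 to 14930 CPM in vehicle libraries. PTPRC, the pan-leukocyte marker, reached at most 0.374 CPM, and LYZ was at 0 in all 16 libraries. The 8 endothelial markers summed to 93.0 to 114 CPM in compressed siPIEZO1, 82.0 to 92.6 CPM in siPIEZO1 vehicle, 68.6 to 89.3 CPM in compressed siNTC and 81.9 to 91.0 CPM in siNTC vehicle libraries. Most of that was ERG at 64.0 to 107.5 CPM, with PECAM1 at 1.17 to 5.80 CPM and CDH5 and KDR at most 1.34 and 0.310 CPM. The summed level of 11 fibroblast and synovial markers, led by DCN, was 1699 to 1936 CPM in compressed siPIEZO1, 2139 to 2349 CPM in siPIEZO1 vehicle, 3888 to 5289 CPM in compressed siNTC and 5640 to 6390 CPM in siNTC vehicle libraries. Those 4 ranges did not overlap, and the summed leukocyte list, which is carried here by CD14 and CD79A, was 71.3 to 80.6, 60.8 to 88.9, 53.9 to 86.1 and 38.2 to 48.2 CPM in the same order of groups. DCN made the largest part of the fibroblast and synovial sum, at 1156 to 4488 CPM, while TCF21 and PI16 were at most 0.403 and 0.652 CPM. Of the 10 such markers tested, 7 were called lower and 0 higher in siPIEZO1 than in siNTC, both with compression and with vehicle. None of the 10 was called in the interaction, and the part of these markers in the results that follow was not tested. In bulk RNA, fewer cells of a type and less RNA per cell cannot be told apart.

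PIEZO1 itself (Sscrofa11.1 chromosome 6:914480-967113) was at a few CPM in all 4 groups. It had 4.09, 3.97, 4.73 and 5.91 CPM in compressed siPIEZO1 libraries and 2.25, 4.25, 4.52 and 2.80 CPM in siPIEZO1 vehicle libraries. It had 6.72, 7.30, 8.79 and 5.53 CPM in compressed siNTC libraries and 6.48, 6.36, 5.31 and 3.80 CPM in siNTC vehicle libraries. The ranges of siPIEZO1 and siNTC overlapped both with and without compression. The difference between siPIEZO1 and siNTC was -0.60 ± 0.23 in compressed constructs and -0.66 ± 0.23 in vehicle constructs, and neither passed edgeR's quasi-likelihood test at 9 h (adjusted p = 0.13 and 0.062). The difference in vehicle constructs passed in 5 of 15 alternative fits, and that in compressed constructs in 0 of 15. The interaction of PIEZO1 was 0.06 ± 0.33 (adjusted p = 0.96), so that a difference in its level between the siRNAs could not be told apart between compressed and vehicle constructs. The annotated gene overlaps CTU2 and the sources used here do not say whether counting used the strand, so reads of the pair cannot be told apart.

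Neither of the other channels passed the test. PIEZO2, the related channel of touch neurons, had an interaction of -0.02 ± 0.31 (adjusted p = 0.99), with 6.12 ± 0.562 CPM in compressed siPIEZO1, 6.71 ± 0.339 CPM in siPIEZO1 vehicle, 6.55 ± 1.04 CPM in compressed siNTC and 7.09 ± 2.21 CPM in siNTC vehicle libraries (SD, n = 4 each). TRPV4 had an interaction of -0.05 ± 0.19 (adjusted p = 0.95), and its compression difference was 0.24 with siPIEZO1 and 0.29 with siNTC. Of the 19 genes tested from a list of 22 mechanosensitive channels, 0 were called by edgeR, 2 had an unadjusted p under 0.05, and the median interaction was -0.15, beside -0.03 over all genes tested. Those 2 were GJA1, the gap-junction protein connexin 43, at 0.76 ± 0.21 (adjusted p = 0.072), and TRPM7, a channel that is also a kinase, at 0.48 ± 0.14 (adjusted p = 0.093). Over all genes tested 2514 of 18611 had an unadjusted p under 0.05 in the interaction.

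Across the transcriptome, 202 of 18611 genes (1.09%) passed an adjusted p of 0.05 in the interaction with edgeR's quasi-likelihood test, 186 with a positive difference (0.999%) and 16 with a negative one (0.086%). In 51 of the 202 the difference was at least 1 on the log2 scale. The number rests on the libraries used. It was 91 without replicate 1 of compressed siPIEZO1, and 64, 331 and 80 without replicates 4, 3 and 2 of siPIEZO1 vehicle. It was 65 and 357 without replicates 3 and 1 of compressed siNTC, and 91 and 60 without replicates 4 and 3 of siNTC vehicle. With both libraries that stood apart left out, 29 genes passed, and with a fit on the 16 libraries alone, which estimates the spread without the Yoda1 and non-transfected libraries, 44 passed, against 491 with DESeq2. All 202 kept their sign in each of the 16 fits that left out 1 library, and 48 passed in every one of them. Each such fit shares all but 1 library with the fit that chose the genes, so a change of sign was hardly possible.

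Compression was also tested within each siRNA, and the difference between the 2 counts of calls was not tested. With siPIEZO1, 405 genes (2.18%) passed, 250 higher (1.34%) and 155 lower (0.833%) in compressed constructs, and with siNTC 1196 (6.43%) passed, 516 higher (2.77%) and 680 lower (3.65%). The first count was 222 without replicate 2 of compressed siPIEZO1 and 194 without replicate 4 of siPIEZO1 vehicle, and DESeq2 split its calls 346 higher to 348 lower. The second was 374 and 717 without replicates 3 and 2 of compressed siNTC, and 445 and 561 without replicates 4 and 3 of siNTC vehicle. The lowest of these, 374, is under the 405 calls of siPIEZO1, but those come from the fit on all libraries. The siPIEZO1 count was not computed without that siNTC library, so whether the order of the counts turns is not known. The fit on the groups compared alone split the siNTC calls 302 higher to 287 lower, which turns the balance of directions. The 2 comparisons share no library, and 83 genes passed in both, 20.5% of the siPIEZO1 calls and 6.94% of the siNTC calls, with 47 higher in both, 33 lower in both and 3 opposite. Between siNTC and non-transfected constructs, where compression gave 653 calls (3.51%), 400 higher (2.15%) and 253 lower (1.36%), 257 genes passed in both, 21.5% of the siNTC calls and 39.4% of the non-transfected calls. The non-transfected count was 328 and 180 without replicates 3 and 2 of its compressed group, and 284 and 405 without replicates 4 and 3 of its vehicle group. Between siPIEZO1 and siNTC constructs, 1091 genes (5.86%) passed with compression, 643 higher (3.45%) and 448 lower (2.41%) in siPIEZO1. With vehicle 2017 (10.8%) passed, 895 higher (4.81%) and 1122 lower (6.03%). In both 509 passed, 46.7% of the first and 25.2% of the second. The vehicle count was 1261 and 1310 without replicates 4 and 3 of siNTC vehicle, and the fit on the groups compared alone split it 680 higher to 633 lower, again turning the balance. Across all genes tested the log2 compression differences of siPIEZO1 and siNTC correlated with r = 0.073 over 18611 genes, which are not independent replicates. For siNTC and non-transfected constructs r was also low, at 0.093. Of genes called with siPIEZO1 but not siNTC, 73.29% had the same sign in both, and of those called with siNTC but not siPIEZO1, 68.55%. Over all genes tested that share was 55.9%. For siNTC and non-transfected constructs these 3 shares were 90.42%, 86.87% and 63.15%.

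**Figure D1:**
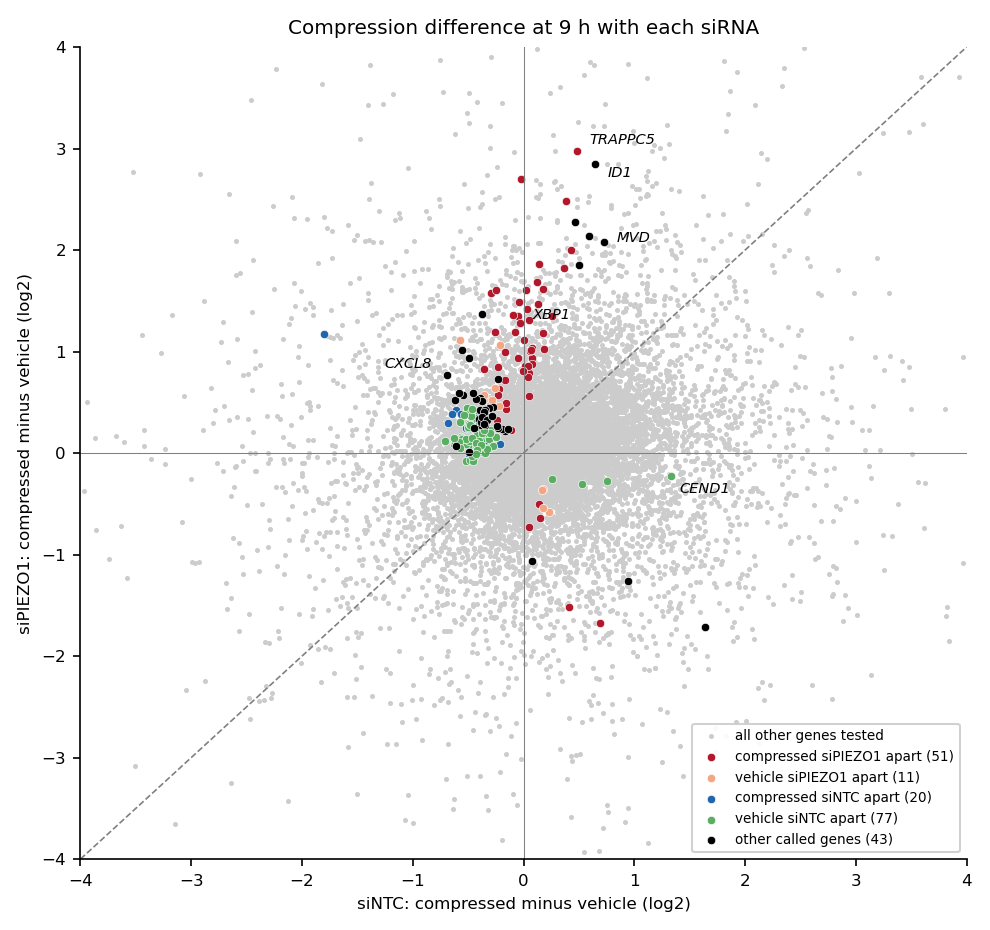
Compression difference (compressed minus vehicle, log2) with siPIEZO1 on the vertical axis and with siNTC on the horizontal axis, 1 point per gene tested, with the 202 genes called in the interaction coloured by which of the 4 groups stood apart; the dashed line marks equal differences, and 94 genes beyond 4 on either axis are not drawn. The 46 positive genes with compressed siPIEZO1 apart rise along the vertical axis near 0 for siNTC, and the 73 positive genes with siNTC vehicle apart lie left of 0 near 0 for siPIEZO1. The negative genes of these kinds, 5 and 4, lie on the opposite sides.

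The called genes fell into kinds according to which group differed, and the kinds were defined after the values had been seen, so they are a description with no test. A group was said to stand apart when both pairwise differences that involve it passed, in the direction of the interaction, and both that do not involve it failed. Compressed siPIEZO1 stood apart for 51 genes, siNTC vehicle for 77, compressed siNTC for 20 and siPIEZO1 vehicle for 11, and 43 followed none of these. The median interaction was 1.10 over the 46 positive genes with compressed siPIEZO1 apart, and 0.59 over the 73 positive genes with siNTC vehicle apart. The first kind held in more of the alternative fits: 25 of its 51 genes passed in every fit that left out 1 library and 27 in the fit on the 16 libraries alone, against 8 and 2 of the 77 with siNTC vehicle apart. Of the 28 genes that passed without the 2 libraries that stood apart and in the main comparison, 19 were of the first kind and 1 of the second.

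Among the genes named by size, the largest interactions belonged to genes that were high in all 4 compressed siPIEZO1 libraries and low in the other 12. TRAPPC5 (chromosome 2:71470441-71472614), a subunit of the TRAPP complexes that tether transport vesicles, had 96.9, 174, 104 and 113 CPM in compressed siPIEZO1 libraries and 14.4, 14.3, 17.6 and 15.4 CPM in siPIEZO1 vehicle libraries. It had 9.16, 14.2, 14.6 and 13.2 CPM in compressed siNTC libraries and 8.25, 10.8, 7.42 and 10.3 CPM in siNTC vehicle libraries. None of the other 12 libraries came near the lowest of the compressed siPIEZO1 group, though the gene was chosen for its difference in these same libraries. Some siPIEZO1 libraries outside this comparison did, as given below. Its compression difference was 2.98 with siPIEZO1 (adjusted p = 3.2e-09) and 0.48 with siNTC (adjusted p = 0.32), an interaction of 2.50 ± 0.37 (adjusted p = 0.00019). Its span overlaps PCP2, and since the sources used here do not say whether counting used the strand, reads of the pair cannot be told apart.

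ID1 (chromosome 17:35316518-35317742), an inhibitor of helix-loop-helix transcription factors and a direct target of BMP signalling, had 164, 244, 177 and 175 CPM in compressed siPIEZO1 libraries and 27.8, 22.4, 32.0 and 23.4 CPM in siPIEZO1 vehicle libraries. It had 22.5, 25.7, 21.6 and 20.7 CPM in compressed siNTC libraries and 15.3, 14.8, 13.9 and 13.8 CPM in siNTC vehicle libraries. The interaction was 2.20 ± 0.30 (adjusted p = 5e-05), and here siPIEZO1 vehicle was also above siNTC vehicle, by 0.87 ± 0.21 (adjusted p = 0.0059). The compression difference of ID1 was 2.85 with siPIEZO1, 0.65 with siNTC and 0.77 in non-transfected constructs (adjusted p = 1e-10, 0.060 and 0.043). Replicate 2 of compressed siPIEZO1 was the highest library for both ID1 and TRAPPC5. STARD10, a lipid-transfer protein, had the largest interaction among the named genes at 2.72 ± 0.50 (adjusted p = 0.004), at 6.39, 5.48, 6.77 and 8.51 CPM in compressed siPIEZO1 and no more than 1.61 CPM in any of the other 12 libraries.

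XBP1 (chromosome 14:46011239-46016526), the transcription factor of the unfolded protein response whose messenger is spliced in stressed endoplasmic reticulum, had the smallest p of all genes tested. It had 264, 370, 259 and 246 CPM in compressed siPIEZO1 libraries and 116, 120, 118 and 114 CPM in siPIEZO1 vehicle libraries. It had 135, 137, 118 and 136 CPM in compressed siNTC libraries and 132, 133, 132 and 140 CPM in siNTC vehicle libraries. The other 3 groups lay within 114 to 140 CPM, and the compression difference was 1.28 with siPIEZO1 and -0.03 with siNTC, an interaction of 1.31 ± 0.16 (adjusted p = 1.5e-05). The counts do not separate spliced from unspliced XBP1. EIF5, a factor in start-codon selection by the ribosome named after its values were seen, had 350, 475, 356 and 338 CPM in compressed siPIEZO1 libraries, against 138 to 170 CPM in the other 12, and an interaction of 1.26 ± 0.17 (adjusted p = 4.7e-05).

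Of the remaining genes named for the size of their positive interaction, most behaved in the same way. The interaction was 2.10 ± 0.50 for PRKCZ, an atypical protein kinase C, 1.85 ± 0.37 for PPM1D, a phosphatase that acts on p53, and 1.87 ± 0.46 for TUBB3, a beta tubulin best known from neurons. It was 1.72 ± 0.37 for GLRX5, which serves iron-sulphur cluster assembly in mitochondria, 1.58 ± 0.26 for ALG2, a mannosyltransferase of N-glycan assembly, and 1.57 ± 0.39 for PRSS22, a serine protease. In each of these 6 genes the 4 compressed siPIEZO1 libraries were above all 12 others, which follows largely from the choice of the genes in these libraries and is no finding. The adjusted p lay between 0.00092 for ALG2 and 0.034 for TUBB3. RAB5IF, a factor at the endoplasmic reticulum membrane, had an interaction of 1.81 ± 0.42 (adjusted p = 0.025), and its siPIEZO1 vehicle level was also above that of siNTC vehicle, by 1.13 (adjusted p = 0.012). DR1, a repressor of transcription by RNA polymerase II, combined opposite changes, 1.01 with siPIEZO1 (adjusted p = 0.00013) and -0.56 with siNTC (adjusted p = 0.032), for an interaction of 1.57 ± 0.23 (adjusted p = 0.00015). TMPO, a nuclear lamina protein, had an interaction of 1.74 ± 0.44 (adjusted p = 0.037) at low levels throughout.

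The 6 smallest p-values included 3 more genes of this kind that the size rule did not name, chosen here after their values had been seen. NOL7, a nucleolar protein, had an interaction of 0.98 ± 0.13 (adjusted p = 3e-05), SPART, a protein of lipid droplets and endosomes, 1.09 ± 0.15 (adjusted p = 4.7e-05), and ITM2B, a membrane protein processed by furin-like proteases, 1.40 ± 0.20 (adjusted p = 0.00011). All 4 compressed siPIEZO1 libraries were above the other 12 in each of them, which again follows largely from their choice. STARD10, TRAPPC5, ID1, PPM1D, GLRX5, ALG2, DR1, XBP1, NOL7, EIF5, SPART and ITM2B passed in all 16 fits that left out 1 library. TUBB3 passed in 7 of the 16, TMPO in 4, PRSS22 in 6, RAB5IF in 9 and PRKCZ in 11. RAB5IF, NOL7, EIF5 and SPART overlap another annotated gene, so their counts are uncertain in the same way as those of TRAPPC5. The same holds for P4HA1, LOX, SC5D, STARD4, EGR2, RCAN1, COL27A1, HAPLN1, COL11A1, IL1R1, PTGS2, TGFB1, TRPM7 and ATP2A2, whose values follow or were given above.

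**Figure D2:**
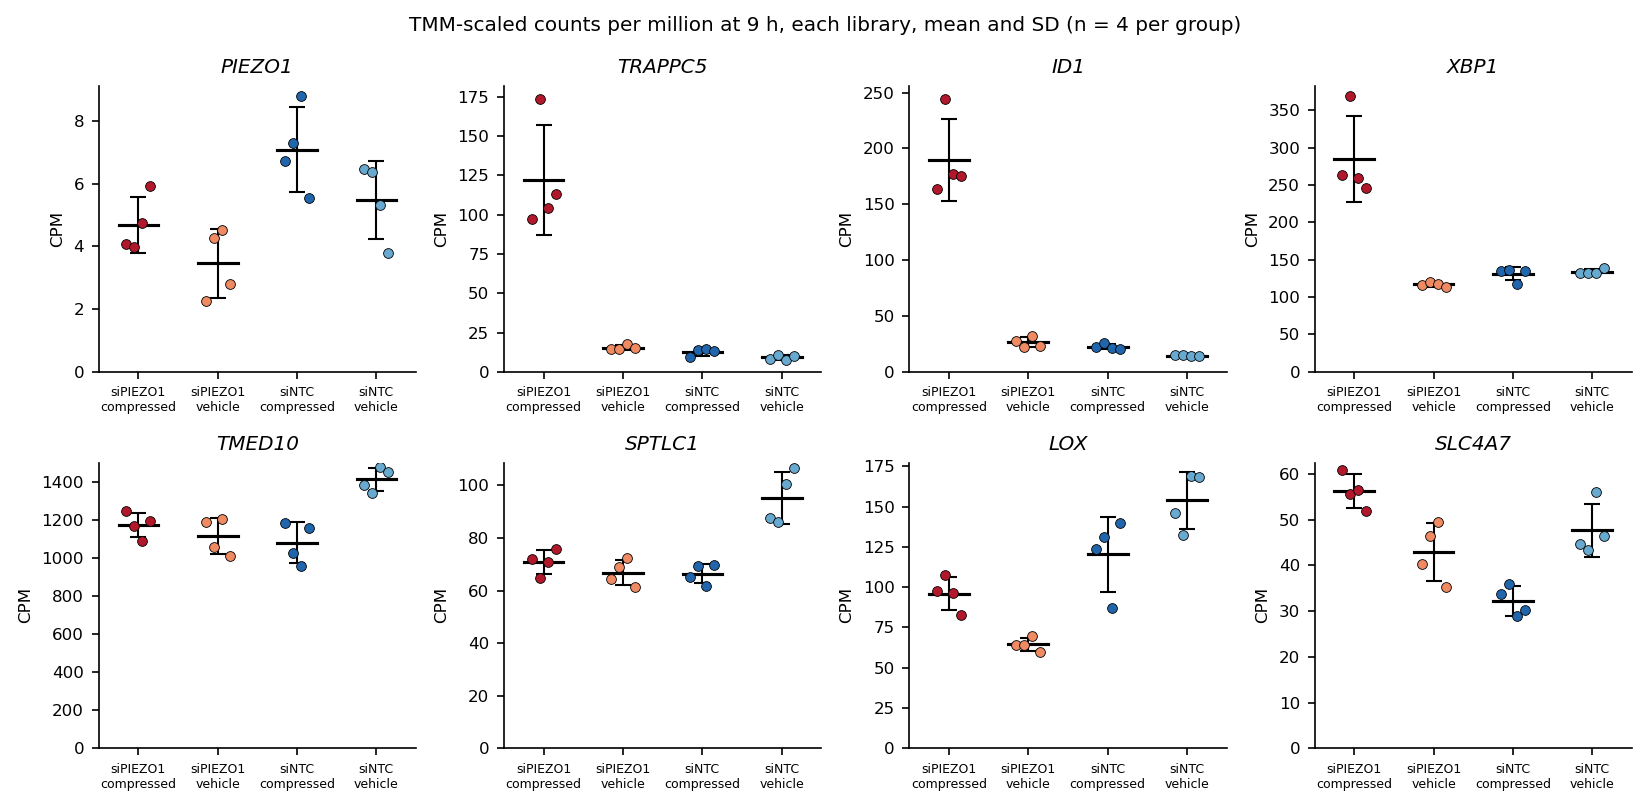
TMM-scaled CPM (linear axes from 0) of 8 genes in each of the 16 libraries, with the group mean and SD (n = 4 per group); the upper row shows PIEZO1 and 3 genes with compressed siPIEZO1 high, and the lower row 2 genes with siNTC vehicle high, LOX with siPIEZO1 vehicle low and SLC4A7 with compressed siNTC low. For TRAPPC5, ID1 and XBP1, which were chosen from these same libraries, no library of the other 3 groups reaches the lowest compressed siPIEZO1 library.

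The same genes were also high in some siPIEZO1 libraries that were never compressed. Over the 46 positive genes with compressed siPIEZO1 apart, the median log2 level against the mean of siNTC vehicle of the same time was 0.892, 1.24, 0.867 and 0.841 in the compressed siPIEZO1 libraries at 9 h, which is the choice of the genes and no finding. In libraries that did not enter that choice, it was 0.285, 0.346, 0.652 and 0.131 in siPIEZO1 constructs given the PIEZO1 agonist Yoda1 for the 9 h time point. At 3 h it was 0.126, 0.228, 0.953 and 0.315 in siPIEZO1 constructs given Yoda1, and 0.0081, 0.324, 0.338 and -0.110 in siPIEZO1 vehicle constructs. Compressed siPIEZO1 constructs at 3 h had -0.191, 0.0068, -0.0375 and -0.0655. In siNTC constructs of both times the value stayed between -0.0883 and 0.123. In non-transfected constructs it lay between -0.084 and 0.169, except under Yoda1 at 3 h, where it was 0.289, 0.346, 0.207 and 0.0783.

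Single genes show the same spread. TRAPPC5 had 36.4, 48.8, 77.0 and 13.5 CPM in siPIEZO1 constructs with Yoda1 at 9 h, and 14.3, 27.0, 116 and 36.1 CPM with Yoda1 and 10.7, 40.7, 50.8 and 12.0 CPM with vehicle at 3 h. ID1 had 48.4, 66.2, 114 and 32.4 CPM in siPIEZO1 constructs with Yoda1 at 9 h, and 65.4, 99.2, 316 and 100.9 CPM with Yoda1 and 74.7, 114, 130 and 53.6 CPM with vehicle at 3 h. Replicate 3 was the highest library in each of these groups for both genes. XBP1 had 111, 141, 137 and 91.9 CPM in siPIEZO1 vehicle libraries at 3 h, so that replicates 2 and 3 were again the highest of that group. What sets these libraries apart was not tested.

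**Figure D3:**
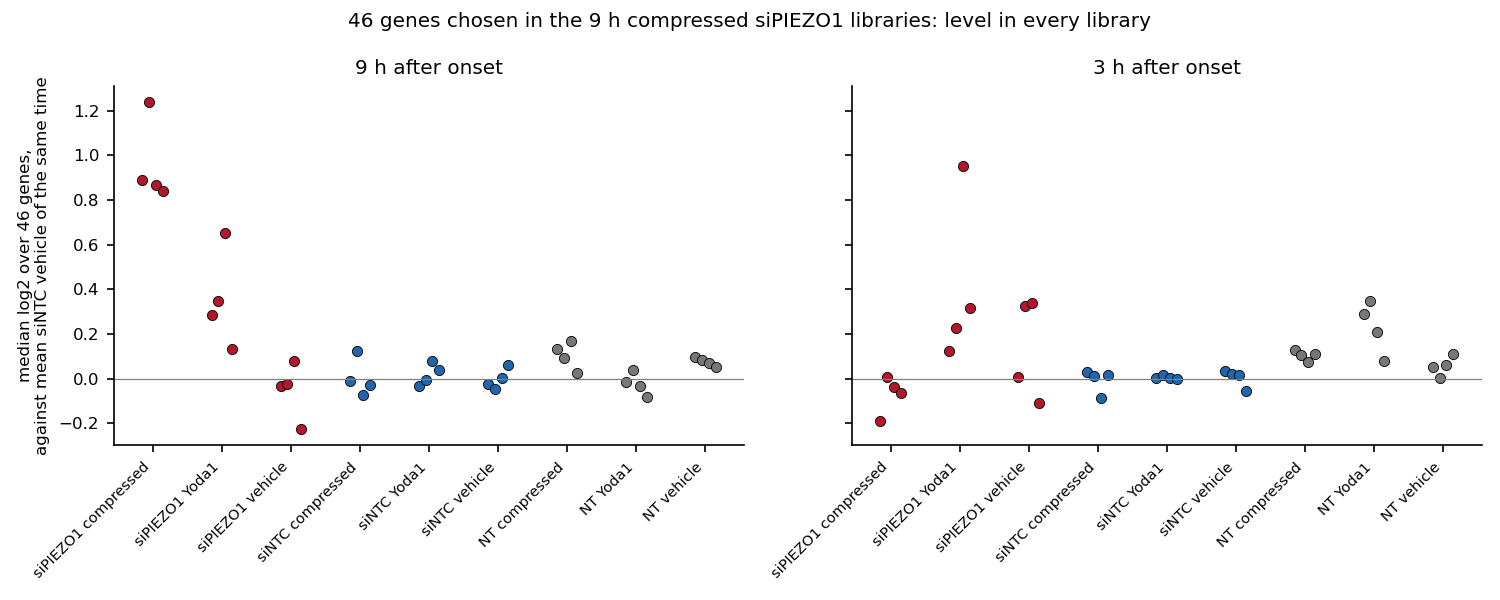
Median log2 level, against the mean of siNTC vehicle libraries of the same time, over the 46 genes with compressed siPIEZO1 apart and a positive interaction, 1 point per library, for 9 h (left) and 3 h (right), with the siPIEZO1 (red), siNTC (blue) and non-transfected (NT, grey) groups along the horizontal axis. The genes were chosen from the compressed siPIEZO1 libraries at 9 h, and intermediate values are also seen in siPIEZO1 libraries with Yoda1 at both times and in replicates 2 and 3 of siPIEZO1 vehicle at 3 h.

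The counts of this and the following lists stand beside those over all genes tested. There 202 of 18611 genes (1.09%) were called, and 1591 positive and 923 negative had an unadjusted p under 0.05. Of 21 genes tested for the unfolded protein and integrated stress responses, 2 were called, both positive, 6 had an unadjusted p under 0.05, all positive, and the median was 0.04, against -0.03 over all genes. The called ones were XBP1 and TRIB3, a pseudokinase induced by ATF4, which had 84.8, 97.8, 121 and 96.2 CPM in compressed siPIEZO1 libraries, 45.7, 42.9, 61.3 and 47.5 CPM in siPIEZO1 vehicle libraries, 60.8, 66.8, 62.4 and 52.8 CPM in compressed siNTC libraries and 58.2, 56.2, 63.8 and 54.2 CPM in siNTC vehicle libraries. The interaction of TRIB3 was 0.95 ± 0.18 (adjusted p = 0.0048). Next in order of p came PSAT1, an enzyme of serine synthesis, at 0.30 ± 0.08 (adjusted p = 0.072), and SLC7A11, the cystine importer, at 0.50 ± 0.15 (adjusted p = 0.099). Their compression differences were -0.15 and -0.13 with siPIEZO1 and -0.44 and -0.62 with siNTC, and the siNTC ones passed (adjusted p = 2.6e-05 and 0.00063). In the heat shock list 1 of 16 genes was called, CHORDC1, a co-chaperone of HSP90, at 0.66 ± 0.13 (adjusted p = 0.0061).

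In cholesterol synthesis 3 of 21 genes were called, all positive, and 8 positive and 1 negative had an unadjusted p under 0.05, with a median of 0.07. MVD, which decarboxylates mevalonate diphosphate, had 71.5, 127, 82.1 and 67.1 CPM in compressed siPIEZO1 libraries and 20.1, 20.2, 21.98 and 20.2 CPM in siPIEZO1 vehicle libraries. It had 21.3, 22.4, 30.5 and 26.4 CPM in compressed siNTC libraries and 15.7, 16.4, 14.2 and 14.5 CPM in siNTC vehicle libraries. Compression raised it in both, by 2.08 with siPIEZO1 (adjusted p = 6.2e-08) and by 0.73 with siNTC (adjusted p = 0.038), and the interaction was 1.35 ± 0.31 (adjusted p = 0.02). SC5D, a sterol desaturase, and STARD4, a sterol carrier, had interactions of 0.47 ± 0.12 and 0.66 ± 0.17 (adjusted p = 0.031 and 0.045). Of the 16 fits that left out 1 library, MVD passed in 14, SC5D in 9 and STARD4 in 6. In the TGF-beta and BMP list ID1 was the 1 gene of 26 called, while SKIL, a repressor of SMAD signalling, had 0.61 ± 0.21 (adjusted p = 0.15), SMAD7, an inhibitor of that pathway, 0.67 ± 0.24 (adjusted p = 0.16), and the ligand TGFB1 -0.55 ± 0.19 (adjusted p = 0.15). ID2 and ID3, of the same list, had -0.21 ± 0.15 and -0.03 ± 0.13 (adjusted p = 0.61 and 0.96).

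In the second kind of gene, siNTC vehicle stood apart as higher for 73 of the 77 genes and as lower for 4. CEND1, RING1 and PSMD9, given below, are among those 4. TMED10, a cargo receptor of vesicles between the endoplasmic reticulum and the Golgi, had 1247, 1170, 1094 and 1197 CPM in compressed siPIEZO1 libraries and 1192, 1059, 1209 and 1012 CPM in siPIEZO1 vehicle libraries. It had 1184, 1030, 960 and 1160 CPM in compressed siNTC libraries and 1387, 1346, 1479 and 1456 CPM in siNTC vehicle libraries. The siNTC vehicle libraries were all above the other 12, the compression difference of TMED10 was 0.07 with siPIEZO1 (adjusted p = 0.75) and -0.39 with siNTC (adjusted p = 0.00054), and the interaction was 0.46 ± 0.09 (adjusted p = 0.0094). SPTLC1, a subunit of the enzyme that starts sphingolipid synthesis, had 61.6 to 75.8 CPM in the compressed siPIEZO1, siPIEZO1 vehicle and compressed siNTC libraries, against 87.6, 86.2, 100 and 106 CPM in siNTC vehicle libraries, with an interaction of 0.60 ± 0.12 (adjusted p = 0.011). Both genes were chosen after their values had been seen.

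The same form was seen in genes named from other lists. P4HA1, a prolyl hydroxylase that matures collagen and the 1 gene of 21 called in the hypoxia and glycolysis list, had an interaction of 0.41 ± 0.10 (adjusted p = 0.037), with -0.07 under compression in siPIEZO1 and -0.48 in siNTC constructs. CHSY1, an enzyme of chondroitin sulphate synthesis named here after its values were seen, had 0.61 ± 0.14 (adjusted p = 0.023). P4HA1 passed in 5 and CHSY1 in 10 of the 16 fits that left out 1 library. Over the 73 positive genes of this kind the median compression difference was 0.14 with siPIEZO1, -0.43 with siNTC and -0.20 in non-transfected constructs, where 9 of the 73 were called lower and 0 higher. The median difference between siPIEZO1 and siNTC was 0.17 in compressed and -0.45 in vehicle constructs. Without replicate 4 of siPIEZO1 vehicle, 13 of the 77 genes of this kind passed.

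The siNTC vehicle level of these 73 genes was not particular to that group, since some other 9 h libraries that did not enter the choice lay near it. The median log2 level against the mean of siNTC vehicle was -0.0598, -0.0403, -0.0377 and -0.0549 in non-transfected vehicle libraries, and -0.100, -0.112, -0.0146 and 0.0420 in siNTC libraries with Yoda1. It was -0.195, -0.124, -0.132 and 0.0471 in siPIEZO1 libraries with Yoda1, and -0.173, -0.321, -0.241 and -0.239 in compressed non-transfected libraries. In the groups used for the choice, the values are a description of that choice. They were -0.220, -0.294, -0.299 and -0.256 in compressed siPIEZO1 libraries. In siPIEZO1 vehicle libraries they were -0.297, -0.458, -0.275 and -0.686, and in compressed siNTC libraries -0.268, -0.4485, -0.657 and -0.348. The lowest library of each of these last 2 groups, replicate 4 of siPIEZO1 vehicle and replicate 3 of compressed siNTC, is 1 of the 2 that stood apart. At 3 h the value was between -0.468 and -0.247 in siPIEZO1 vehicle libraries and between -0.0505 and 0.129 in compressed siNTC libraries.

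Smaller groups of calls turned on the other 2 groups. LOX, the enzyme that crosslinks collagen and elastin, had 97.9, 108, 96.2 and 82.5 CPM in compressed siPIEZO1 libraries and 63.9, 64.4, 69.5 and 60.0 CPM in siPIEZO1 vehicle libraries. It had 124, 131, 87.2 and 140 CPM in compressed siNTC libraries and 146, 133, 169 and 168 CPM in siNTC vehicle libraries. The siPIEZO1 vehicle libraries were below all 12 others, the difference of siPIEZO1 from siNTC in vehicle constructs was -1.26 (adjusted p = 5.7e-10), and the interaction was 0.93 ± 0.16 (adjusted p = 0.0022). LOX, CTHRC1 and SLC4A7 are named after their values were seen. CTHRC1, a secreted protein that limits collagen deposition, had an interaction of 1.28 ± 0.26 (adjusted p = 0.0096) and rose under compression with siPIEZO1 by 1.07. SLC4A7, a sodium bicarbonate cotransporter, was lowest in compressed siNTC, at 33.8, 35.9, 28.9 and 30.2 CPM there against 44.8, 43.2, 56.1 and 46.5 CPM in siNTC vehicle libraries, and its interaction was 0.95 ± 0.19 (adjusted p = 0.011).

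Of the 16 genes with a negative interaction, 7 had a symbol, and some of the other 9, known by identifier only, had larger differences, down to -3.35 for ENSSSCG00000047123. Among the 7, CEND1, a neuronal gene of cell-cycle exit, had the largest difference at -1.56 ± 0.39 (adjusted p = 0.035), with 2.69 to 6.43 CPM in the compressed siPIEZO1, siPIEZO1 vehicle and compressed siNTC libraries, against 2.49, 1.83, 2.13 and 1.69 CPM in siNTC vehicle libraries. RING1, a component of Polycomb repressive complex 1, had -1.03 ± 0.26 (adjusted p = 0.04), with a compression difference of -0.28 in siPIEZO1 constructs (adjusted p = 0.61) and 0.75 in siNTC constructs (adjusted p = 0.012). PCSK4, a proprotein convertase whose span overlaps REEP6, fell to 27.2, 28.9, 33.7 and 31.5 CPM in compressed siPIEZO1 libraries, against 44.3, 43.2, 42.8 and 58.9 CPM in siPIEZO1 vehicle libraries, for an interaction of -0.79 ± 0.19 (adjusted p = 0.025). The compression difference of PCSK4 in non-transfected constructs was -0.58 (adjusted p = 0.0084).

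The other 4 were subunits or assembly factors of large complexes. NDUFA11, of respiratory complex I, had -0.71 ± 0.17 (adjusted p = 0.028), and COX4I1, of complex IV, -0.53 ± 0.13 (adjusted p = 0.034). ARPC5L, of the actin-branching Arp2/3 complex, had -0.52 ± 0.13 (adjusted p = 0.03), and PSMD9, a chaperone of proteasome assembly, -0.52 ± 0.11 (adjusted p = 0.014). PSMD9 passed in 16 of the 16 fits without 1 library, whereas CEND1 and RING1 passed in 6, COX4I1 in 9, PCSK4 in 11 and the other 2 in 7. Replicate 4 of siPIEZO1 vehicle was the highest of the 16 libraries for PSMD9, COX4I1, ARPC5L and PCSK4.

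The 3 lists on energy and protein synthesis had medians of opposite sign, and the shares of these genes differed between the libraries. All 13 mitochondrially encoded respiratory genes had a positive interaction, beside 47.14% of all genes tested, with a median of 0.38, 8 with an unadjusted p under 0.05 and 0 called by edgeR. In vehicle constructs 12 of the 13 were called lower and 0 higher in siPIEZO1 than in siNTC, with a median of -0.57. In compressed constructs 1 was called lower and 0 higher, with a median of -0.26. Compression passed for 0 of these genes with either siRNA. The part of that siRNA difference in the interaction was not tested. The share of the 13 genes in all counts was 0.480% to 0.570% in compressed siPIEZO1, 0.393% to 0.551% in siPIEZO1 vehicle, 0.551% to 0.698% in compressed siNTC and 0.622% to 0.819% in siNTC vehicle libraries. Of 23 cytosolic ribosomal protein genes 0 were called by edgeR and 9 negative and 1 positive had an unadjusted p under 0.05, with a median of -0.20. The ribosomal protein share was 6.38% to 7.10% in compressed siPIEZO1, 7.06% to 9.09% in siPIEZO1 vehicle, 7.18% to 8.23% in compressed siNTC and 7.03% to 8.47% in siNTC vehicle libraries, highest in replicate 4 of siPIEZO1 vehicle. The part of these shares in the lists' differences was not tested. The positive exception was RPL13 at 0.76 ± 0.21 (adjusted p = 0.056). Of 17 nuclear respiratory genes COX4I1 was the 1 called, and the median was -0.12.

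No gene of the cartilage matrix list was called by edgeR in the interaction. Of its 25 genes, 3 positive and 5 negative had an unadjusted p under 0.05, and the median was -0.14. The list's median compression difference was 0.06 with siPIEZO1, 0.23 with siNTC and 0.24 in non-transfected constructs. Between the siRNAs, 15 of the 25 genes were called lower and 0 higher in siPIEZO1 with compression, with a median of -0.49. With vehicle 11 were called lower and 0 higher, with a median of -0.32. Over all genes tested, 2.41% were called lower with compression and 6.03% with vehicle. The part of this siRNA difference in the interaction was not tested. COL27A1, a fibrillar collagen of cartilage, had 0.14 under compression with siPIEZO1 (adjusted p = 0.63) and rose by 0.58 with siNTC (adjusted p = 0.00037), an interaction of -0.44 ± 0.14 (adjusted p = 0.099). HAPLN1, which links aggrecan to hyaluronan, had 0.00 with siPIEZO1 (adjusted p = 1.00) and -0.35 with siNTC (adjusted p = 0.0049), an interaction of 0.35 ± 0.11 (adjusted p = 0.1). COL9A2, of the collagen that decorates type II fibrils, had an interaction of -0.36 ± 0.12 (adjusted p = 0.16), and COL11A1, of their core, 0.26 ± 0.09 (adjusted p = 0.16).

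The lists closest to calcium and injury signalling held 1 call. In the NF-kB and inflammatory list, CXCL8, a neutrophil chemokine, was the 1 called of 27, and it was low throughout. It had 8.11, 5.62, 4.76 and 5.84 CPM in compressed siPIEZO1 libraries, 3.81, 3.39, 4.29 and 2.75 CPM in siPIEZO1 vehicle libraries, 3.17, 3.21, 3.45 and 3.32 CPM in compressed siNTC libraries and 4.66, 4.41, 4.51 and 7.64 CPM in siNTC vehicle libraries. The compression difference was 0.77 with siPIEZO1 (adjusted p = 0.086), -0.69 with siNTC (adjusted p = 0.076) and 0.82 in non-transfected constructs (adjusted p = 0.048), so that siNTC differed in sign from the other 2, and the interaction was 1.46 ± 0.34 (adjusted p = 0.024). CXCL8 passed in 11 of the 16 fits that left out 1 library. IL1R1, the interleukin-1 receptor, had an interaction of 0.45 ± 0.13 (adjusted p = 0.088) and PTGS2, the inducible cyclooxygenase, 0.72 ± 0.25 (adjusted p = 0.17).

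Of 24 immediate early genes 0 were called by edgeR and 5 positive and 0 negative had an unadjusted p under 0.05, among them EGR2 at 1.03 ± 0.42, FOS at 0.40 ± 0.18 and ATF3 at 0.52 ± 0.24 (adjusted p = 0.24, 0.33 and 0.33). JUN had the highest value, 2.62 ± 1.11, with a standard error that left it at an adjusted p of 0.27. Its mean over the 16 libraries was only 0.194 CPM, near the floor. Of 16 calcineurin-NFAT and CREB targets 0 were called, and RCAN1, the feedback inhibitor of calcineurin, had 0.29 ± 0.11 (adjusted p = 0.18), with compression differences of -0.27 with siPIEZO1 and -0.56 with siNTC (adjusted p = 0.045 and 2.6e-05). Of 18 calcium-handling genes 0 were called, led by ATP2A2, the calcium pump of the endoplasmic reticulum, at 0.39 ± 0.13 (adjusted p = 0.14). Of 18 matrix-degrading enzymes and inhibitors 0 were called, with a median of 0.22, and the aggrecanase ADAMTS5 and the collagenase MMP14 had 0.85 ± 0.35 and 0.57 ± 0.23 (adjusted p = 0.25 and 0.25).

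The other lists held 0 calls by edgeR in the interaction, and the genes past an unadjusted p of 0.05 were counted in each. For growth factors these were 3 of 19, led by FGFR3, a brake on chondrocyte growth, at -0.82 ± 0.22 (adjusted p = 0.052), and HBEGF, an EGF receptor ligand, at 0.90 ± 0.27 (adjusted p = 0.088). For YAP-TAZ targets they were 2 of 18 and for SRF and actin genes 2 of 20, with medians of 0.00 and -0.05. For interferon response genes they were 3 of 26, with a median of -0.23 and IFI6 at -0.42 ± 0.12 (adjusted p = 0.088). Between the siRNAs this list differed broadly: 17 of the 26 genes were called higher and 0 lower in siPIEZO1 than in siNTC, both in compressed constructs, with a median of 0.90, and in vehicle constructs, with a median of 1.22. IFI6 was among them, at 1.17 in compressed and 1.59 in vehicle constructs. The part of this difference in the interaction was not tested. For the circadian clock they were 6 of 18, for p53 and apoptosis 3 of 17, for NRF2 4 of 15, for the cell cycle 2 of 22, for hypertrophy and bone 1 of 12 and for siRNA machinery and RNA sensing 2 of 11. Over all genes tested 2514 of 18611 had an unadjusted p under 0.05.

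**Figure D4:**
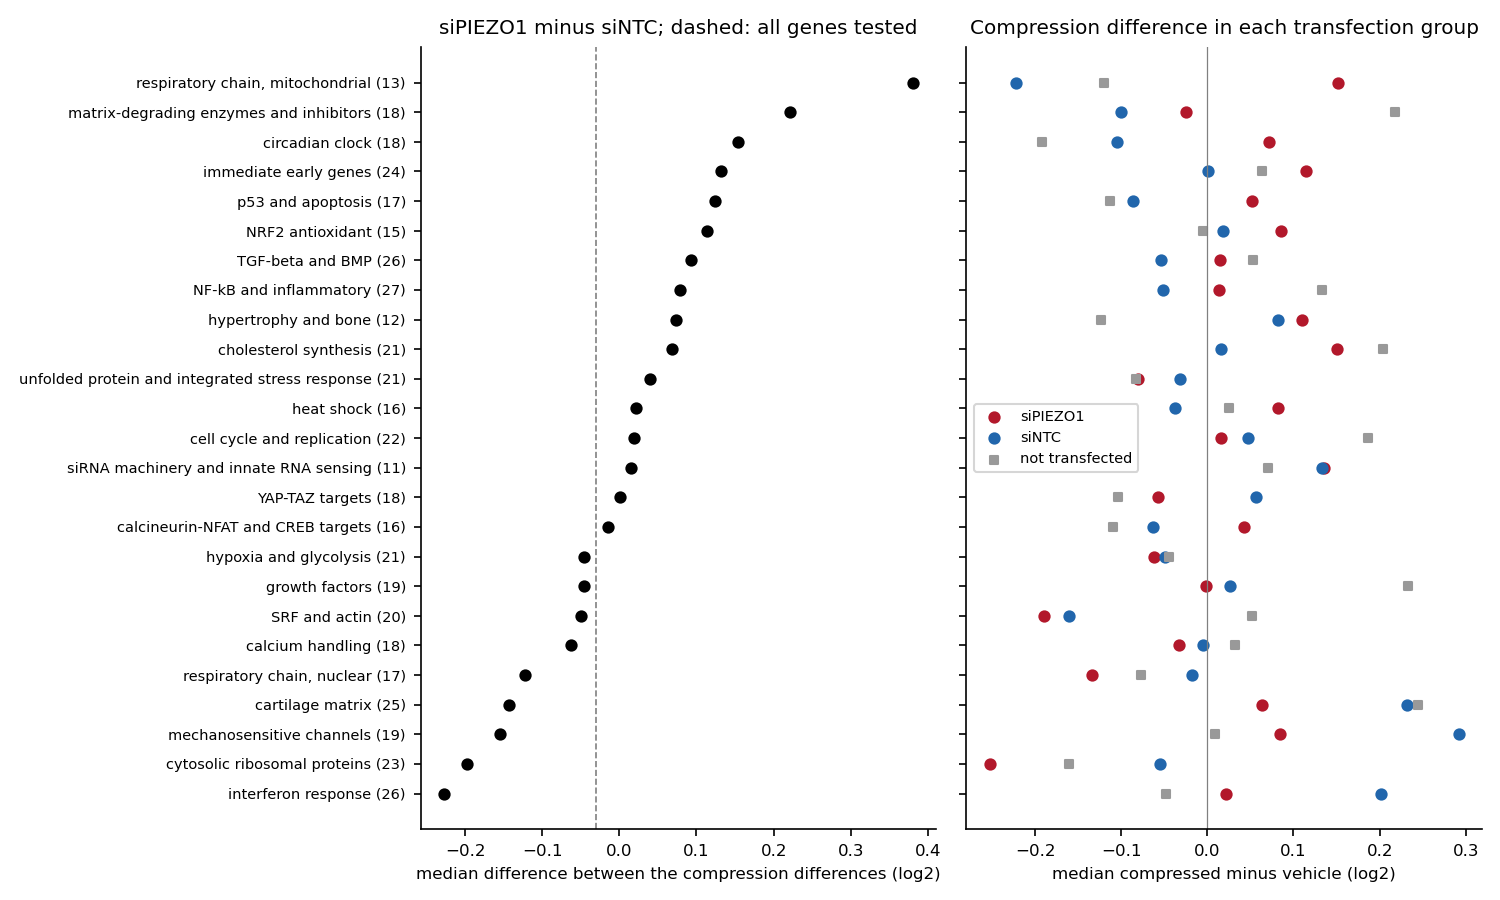
Median over the tested genes of each list other than the cell type markers (number in brackets) of the interaction at 9 h (left, log2, dashed line at the median of all genes tested, -0.03) and of the compression difference (right, log2) in siPIEZO1, siNTC and non-transfected constructs. The mitochondrially encoded genes have the highest interaction median, 0.38, and the interferon response genes the lowest, -0.23.

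At 3 h after onset the same contrast gave 0 calls among 18330 genes (0%) with edgeR, 1 with DESeq2, and 854 genes with an unadjusted p under 0.05. Of the 202 genes called at 9 h, 110 (54.5%) had the same sign at 3 h, beside 49.9% of all genes present in both fits. Of the 46 positive genes with compressed siPIEZO1 apart, 10 had the same sign at 3 h, and their median there was -0.29. The siPIEZO1 vehicle libraries of 3 h, replicates 2 and 3 in particular, were high for these genes, as given above. A test of the interaction at 9 h against that at 3 h called 25 of 20202 genes (0.124%), 24 higher (0.119%) and 1 lower (0.00495%) at 9 h. TRAPPC5 was among them, with 3.80 ± 0.72 (adjusted p = 0.0045), as were ID1 with 2.91 ± 0.52 (adjusted p = 0.002) and XBP1 with 1.69 ± 0.27 (adjusted p = 0.0006). STARD10 had 4.18 ± 0.83 (adjusted p = 0.0065), from interactions of 2.72 at 9 h and -1.46 at 3 h. DR1, PPM1D, RAB5IF and PRKCZ did not pass that test (adjusted p = 0.069, 0.07, 0.14 and 0.31).

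**Figure D5:**
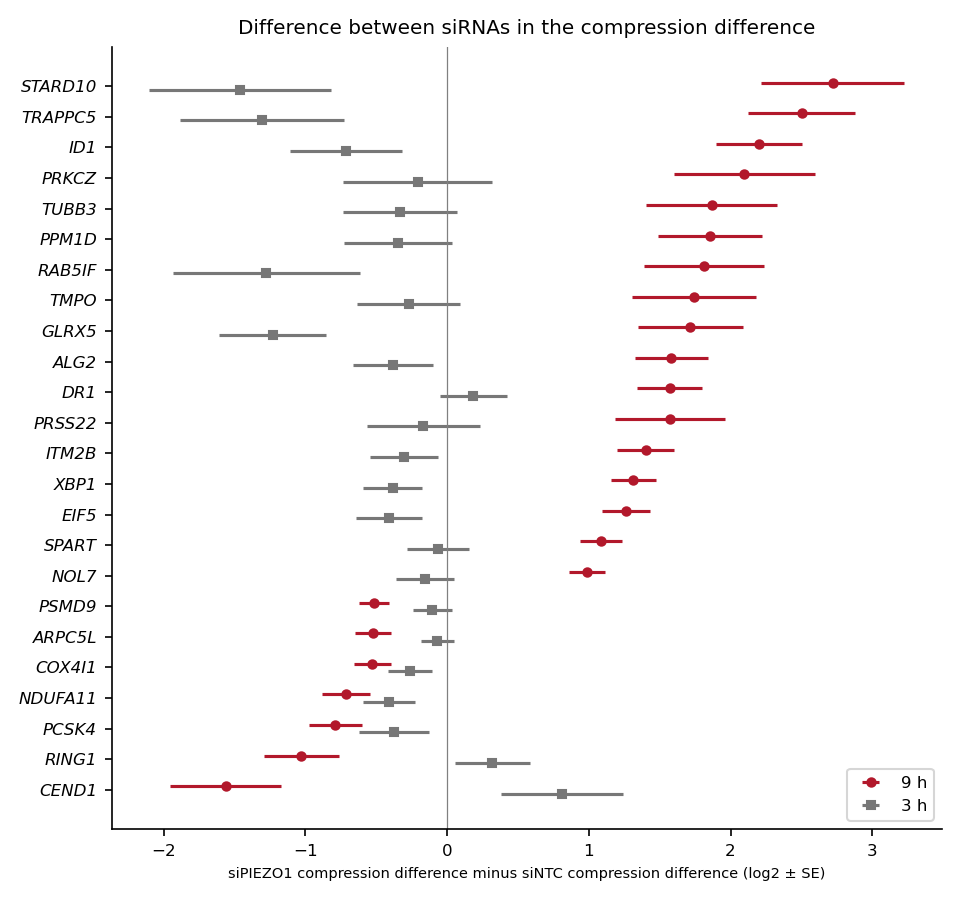
Interaction (siPIEZO1 compression difference minus siNTC compression difference, log2, with its standard error) at 9 h (circles) and 3 h (squares) for the 19 genes named by size and the 5 with the smallest p not among them. The positive genes at 9 h lie below 0 at 3 h, apart from DR1.

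The compression response was also compared between siNTC and non-transfected constructs. Compressed minus vehicle in siNTC, minus the same in non-transfected constructs, passed for 7 of 18611 genes (0.0376%), 1 higher (0.00537%) and 6 lower (0.0322%), among them ACTB and ACTG1, the cytoplasmic actins, named after their values were seen. That count lay between 1 and 19 when 1 library was left out, and was 42 with DESeq2 and 0 in a fit on the groups compared alone. The genes with compressed siPIEZO1 apart had a median compression difference of 0.01 in non-transfected constructs over the 46 positive ones, none of which was called there. TRAPPC5 had 20.0, 16.6, 15.4 and 10.6 CPM in compressed and 10.1, 11.6, 12.8 and 9.16 CPM in vehicle non-transfected libraries, and XBP1 had 143 ± 6.75 CPM and 144 ± 4.73 CPM (SD, n = 4 each).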

How the data were processed

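The deposited table holds whole-number counts per gene that the authors made with Trim Galore, STAR and HTSeq against Sscrofa11.1, per the submitters' processing notes. Their versions, the annotation and whether counting used the strand are not stated there. Libraries were made from 10 ng of total RNA with a low-input kit, per the labels' protocols. Of 32388 lines, 481 repeats were removed, leaving 31907 identifiers. Genes were named from the table, a gene name table and RefSeq.

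Counts were filtered with filterByExpr (minimum count 10), scaled by TMM and fitted with edgeR 4.0.16 (R 4.3.3) with 1 term for each of 9 groups over the 36 libraries of the PIEZO1 experiment at 9 h, and likewise at 3 h. Differences are on the log2 scale with standard errors, and p-values come from its quasi-likelihood F-test, adjusted by the Benjamini-Hochberg method over all genes tested and called under 0.05. DESeq2 1.42.0 was an alternative. The steps were tested on simulated data. Set medians used log2 of CPM plus 0.5.

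The groups, members and gene lists (31 lists, 502 genes tested) were chosen with earlier results of these data known. The named genes were the 12 largest differences in each direction among called genes with a symbol and a mean of at least 1 CPM, of which 7 were negative, with PIEZO1, PIEZO2, TRPV4 and up to 4 genes of each list by smallest p. Other genes are marked as chosen after their values were seen. No pair of libraries within a group agreed within sampling noise. Other alternatives were another scaling, other filters, a replicate block, a fit on the groups compared, and each library left out.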

Additional observations from a re-analysis of the deposited data

Results flagged for a closer look

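In 116 groups of 4 libraries checked for a library far from the other 3, where chance alone flags about 1 in 20 groups, 9 were found. In compressed siPIEZO1 at 9 h, replicate 2 was high for ID1 at 244 CPM (others 164 to 177 CPM), for ALG2 at 27.4 CPM (others 17.6 to 18.5 CPM), for XBP1 at 370 CPM (others 246 to 264 CPM) and for EIF5 at 475 CPM (others 338 to 356 CPM). In siPIEZO1 vehicle, replicate 4 was high for PCSK4 at 58.9 CPM (others 42.8 to 44.3 CPM) and for PSMD9 at 104 CPM (others 90.0 to 91.7 CPM). XBP1 was low in replicate 3 of compressed siNTC at 118 CPM (others 135 to 137 CPM) and high in replicate 4 of siNTC vehicle at 140 CPM (others 132 to 133 CPM). The share of mitochondrially encoded genes was 0.819% in replicate 4 of siNTC vehicle (others 0.622% to 0.647%).

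The compression response differed between groups by a test of the difference itself for 202 genes between siPIEZO1 and siNTC, for 7 genes between siNTC and non-transfected constructs, and for 25 genes between the siPIEZO1 and siNTC contrast at 9 h and at 3 h. In libraries outside the comparison, the 46 genes with compressed siPIEZO1 apart had a median log2 level over siNTC vehicle of 0.652 in replicate 3 of siPIEZO1 with Yoda1 at 9 h, 0.953 in replicate 3 of siPIEZO1 with Yoda1 at 3 h and 0.338 in replicate 3 of siPIEZO1 vehicle at 3 h. The cause of these values was not tested.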

How the results depend on the processing

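None of the 24 genes named by size or smallest p changed sign in any alternative, which tests little, since the alternatives use the libraries that chose them. The interaction of PIEZO1, which was not called, ran from -0.0957 to 0.222. The interaction gave 202 calls, against 491 with DESeq2, 44 in a fit on the groups compared alone, 29 without the 2 libraries that stood apart (an alternative chosen after seeing the data), and 60 to 357 with 1 library left out. DESeq2 gave 694 calls for compression with siPIEZO1, 1911 with siNTC and 1211 in non-transfected constructs, 42 for siNTC against non-transfected, 1 for the interaction at 3 h and 50 for the difference between times. The fit on the groups compared alone gave 589 calls for compression with siNTC (302 higher, 287 lower), 419 in non-transfected constructs, 1313 for siPIEZO1 against siNTC with vehicle (680 higher, 633 lower) and 0 for siNTC against non-transfected, where protein-coding genes alone (also added after seeing the data) gave 4. With 1 library left out the counts ran from 194 to 463 for compression with siPIEZO1, 374 to 1393 with siNTC, 180 to 797 in non-transfected constructs, 1261 to 2039 for the siRNA difference with vehicle, 1 to 19 for siNTC against non-transfected and 0 to 1 for the interaction at 3 h. The cause of these changes was not tested, apart from the smaller number of libraries in some fits.

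The replicate numbers did not pair the libraries: in 24 same-numbered pairs the correlation of deviations ran from -0.0372 to 0.0444, none was over 0.1, and 4 of 16 libraries correlated best with their own number. With the replicate number as a block the interaction gave 282 calls, and compression in non-transfected constructs 1043.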
